A study of Zea mays with 33 samples.

Results

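Brassinosteroids are plant steroid hormones that promote cell expansion and division. They are made from membrane sterols by a chain of reductases and oxidases, and a receptor kinase with leucine-rich repeats binds them at the cell surface. Maize plants that lack a step of the chain or the receptor are dwarfs. The 4 genes described here cover both ends of the pathway. The enzymes are na2 (nana plant2, Zm00001d014887), a sterol reductase of the DWF1 type that acts early, na1 (nana plant1, Zm00001d042843), a steroid reductase of the DET2 type that acts in the middle, and brd1 (Zm00001d033180), a cytochrome P450 oxidase of the last steps. The receptor is bri1 (Zm00001d011721). They were taken by gene ID and are 4 of the 46430 genes in the count tables. After a filter on low counts, 28997 genes were tested, among them 4 of these 4.

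RNA sequencing was performed on 33 libraries of wild type B73, the reference inbred line of maize. The labels give no treatment, and all 33 sample titles carry the code WW, which they do not define. The 11 tissues had 3 libraries each. From seedlings at the V2 leaf stage came green expanded blades (V2_LF) and the white leaf parts that were still enclosed (V2_LF-I). Seedlings grown on perlite away from direct light gave roots (DAS4_R) and hypocotyls (DAS4_HY) at 4 days after sowing. Plants at pollen shed gave the first internode under the ear (PS_IN1), blades of the last leaf with a ligule (PS_LF), growing silks still under the husk (PS_SILK), tassel parts that carried fresh pollen (PS_TAS) and the middle of ears before pollination (PS_EAR). Whole seeds came from the field at 35 (DAP35_S) and 12 (DAP12_S) days after pollination by the labels; the methods of the study give a later age for the younger seeds. A library was made from 1 plant, except that roots and hypocotyls were pools of 3 plants and seeds a pool from 1 ear. Growth place differed between the seeds, the 4-day seedlings and the greenhouse plants and cannot be told apart from tissue across these sets, and the older seeds had another RNA extraction than the younger ones.

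Libraries held 15832186 to 42886946 reads assigned to single genes, with a median of 26898158. Levels are given as CPM, the usual scale on which a gene's reads are divided by all gene reads of the library, after TMM scaling, in which a factor per library corrects for a few very abundant transcripts. CPM is not divided by gene length, so levels were compared between tissues of 1 gene and not between genes. The TMM factors were 0.479 to 0.481 in V2_LF and 0.596 to 0.780 in PS_TAS, against 0.793 to 1.48 in the other 9 tissues. Without them the median log2 difference of all genes moved by -1.11 in V2_LF and by -0.63 in PS_TAS against the other tissues. Ears moved by 0.58, and roots, hypocotyls and 12-day seeds by 0.44 to 0.45. Values in V2_LF, PS_TAS and ears thus depend on the scaling more than others. In such whole-tissue samples, fewer cells of a type and less RNA per cell cannot be told apart. The files name genes by ID, so tissue identity was not checked against marker genes.

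Each of the 4 genes differed between tissues (edgeR's quasi-likelihood F test over 11 tissues, adjusted p at most 8.23e-07), as did 99.5% of all genes tested. Each tissue was then set against the mean of the other 10, taken on the log2 scale. A gene was called where the Benjamini-Hochberg adjusted p was under 0.05 and the log2 fold change beyond 1. Tissues with very low levels pull such a mean below the mean CPM, so a call does not always mean a doubling of the mean CPM. Silks had 241 CPM of na2 against a mean of 171 CPM in the other 10, at a log2 difference of 1.34. Of 44 combinations of gene and tissue, 13 were called higher and 10 lower, where 21.2% and 14.3% of all such combinations over the genes tested were called. Silks had 3 of the 4 genes higher (15.9% of all genes), namely na1, na2 and brd1. V2_LF-I had na2 and brd1 higher (23.0%), and ears na2 and bri1 (18.7%). A single gene was called higher in roots (na2, 24.0% of all genes), hypocotyls (na2, 23.9%), V2_LF (brd1, 23.4%), the internode (bri1, 17.6%), the tassel (brd1, 28.9%) and 35-day seeds (na1, 18.4%), and 0 in PS_LF (21.2%) and 12-day seeds (17.7%). Without TMM scaling, 3 of the 4 were called higher in 12-day seeds, na1 (1.05), na2 (1.12) and bri1 (1.07). With the scaling their values were 0.60, 0.67 and 0.62, and leaving it out moved the median of all genes there by 0.44. The share of all genes called without the scaling is not given here. In the tassel (13.2% of all genes lower), V2_LF (23.1%) and PS_LF (18.9%), the same 3 genes, na1, na2 and bri1, were called lower, and in the internode brd1 (12.3%). None of the 4 was called lower in the other 7 tissues, where 6.99% (hypocotyls) to 16.2% (both seed stages) of all genes were. With a log2 fold change beyond 2 required, 1 combination was higher (11.8% of all) and 3 were lower (7.01%).

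**Figure D1:**
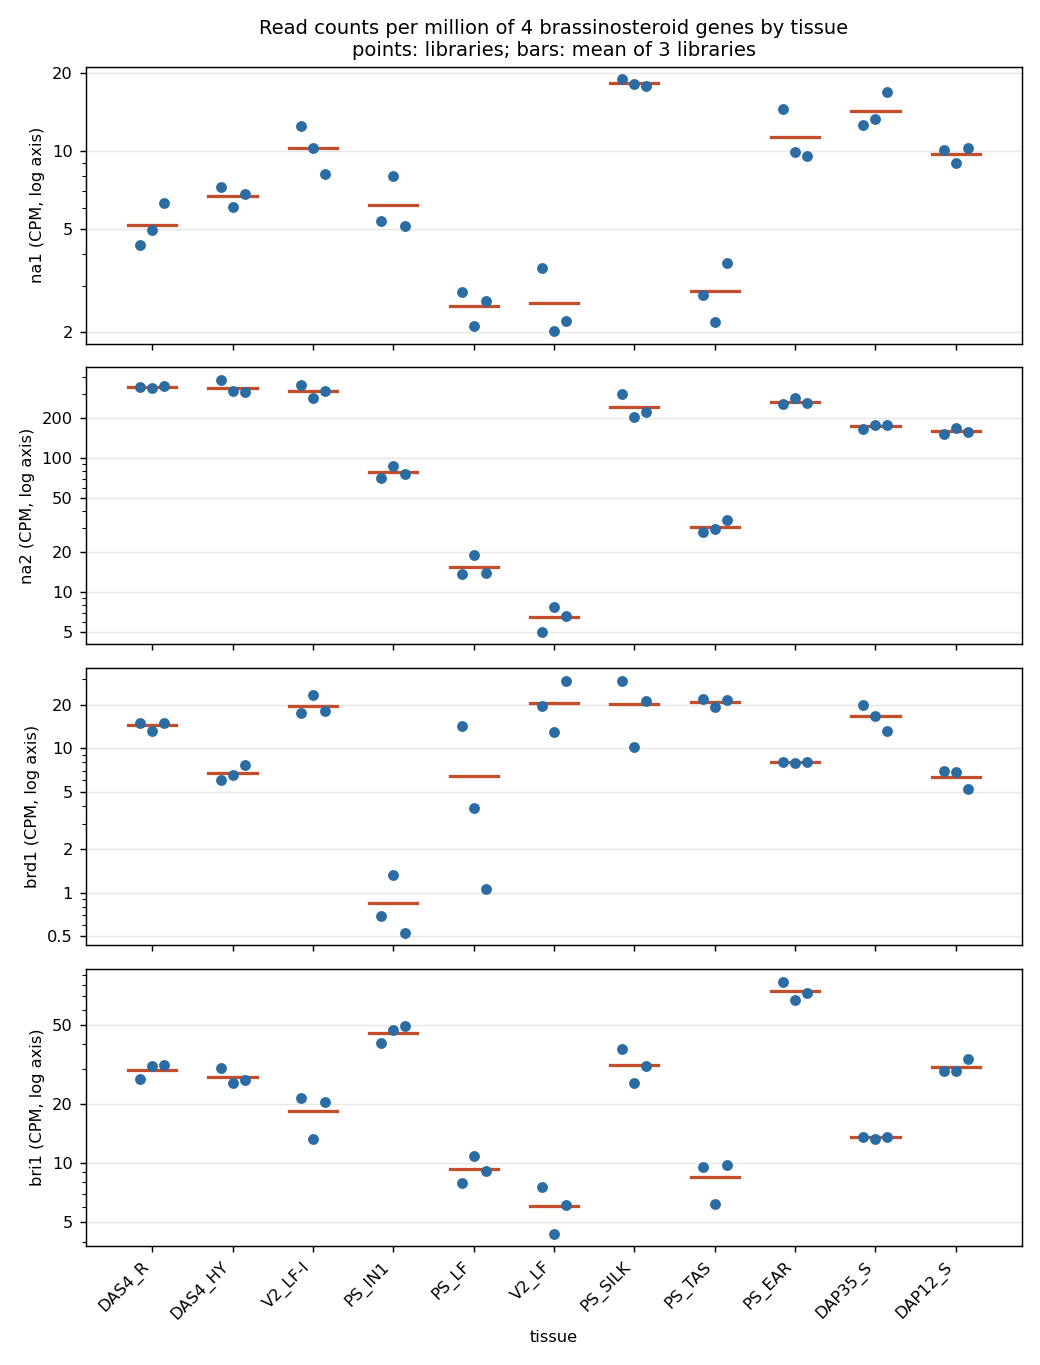
CPM of na1, na2, brd1 and bri1 (log axes) in the 11 tissues; points are single libraries and bars the mean of 3. The lowest na1, na2 and bri1 levels lie in PS_LF, V2_LF and PS_TAS, while brd1 is lowest in PS_IN1, at 0.849 CPM on average, and spreads from 1.06 to 14.2 CPM within PS_LF.

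Of the 4 genes, na2 covered the widest range. Its mean level was 52.3-fold higher in roots, the tissue with the highest mean, than in V2_LF, the lowest, a log2 range larger than in 70.8% of genes tested. Roots had 337, 332 and 346 CPM, hypocotyls 381, 313 and 310.3 CPM, and the log2 difference of 0.02 ± 0.15 (SE) did not pass the test (adjusted p = 0.968). These 2 tissues, V2_LF-I, ears and silks were each called higher than the mean of the others, by 1.88, 1.86, 1.77, 1.48 and 1.34 on the log2 scale. Immature leaf libraries held 352, 281 and 315 CPM, against 5.04, 7.68 and 6.68 CPM in green V2 blades. The groups lay far apart, and the 48.7-fold difference (log2 5.61 ± 0.19, adjusted p = 7.23e-18) was the largest of the 28 pair differences computed for the 4 genes.

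The other leaf and stem tissues were low or intermediate for na2. PS_LF had 13.7, 18.7 and 13.9 CPM, above all 3 V2_LF libraries (log2 1.25 ± 0.17, adjusted p = 7.33e-07). Internodes reached 71.1, 86.8 and 76.1 CPM and exceeded PS_LF by 2.34 ± 0.16 on the log2 scale (adjusted p = 1.46e-12). Tassels had 27.8, 29.7 and 34.5 CPM, against 253, 279 and 257 CPM in ears, a log2 difference of -3.10 ± 0.16 (adjusted p = 5.33e-15). Silks had 299, 202 and 222 CPM and overlapped with ears (log2 -0.13 ± 0.15, adjusted p = 0.513). Seeds were between these levels, at 165, 176 and 177 CPM at 35 days, against 151, 168 and 156 CPM at 12 days, and the stages overlapped (log2 0.12 ± 0.15, adjusted p = 0.539). In order of the means, the tissues from PS_IN1 downward (PS_IN1, PS_TAS, PS_LF, V2_LF) each differed from the next, with adjusted p of 3.11e-06 or less. At the top of the order, neighbours from roots to silks did not pass the test, but some tissues further apart did. Silks were below roots, hypocotyls and V2_LF-I (adjusted p = 0.00577, 0.00744 and 0.0262), and ears were below roots (adjusted p = 0.0368).

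The na1 transcript, from a gene that acts later in the pathway than na2, followed a flatter course, with a 7.27-fold range between tissue means. Silks had the highest level, with 19.0, 18.1 and 17.9 CPM (log2 1.60 ± 0.14 over the other tissues, adjusted p = 2.32e-10). Ears had 14.5, 9.89 and 9.61 CPM, below every silk library, and the silk minus ear difference of 0.70 ± 0.22 passed the test (adjusted p = 0.00921) without reaching the fold needed for a call. The 35-day seeds held 12.6, 13.3 and 17.0 CPM and the 12-day seeds 10.1, 8.99 and 10.3 CPM. All 3 older seed libraries were above the younger ones, by 0.54 ± 0.22 on the log2 scale, which is likewise under the fold for a call (adjusted p = 0.0477). Against the other tissues the older seeds were called higher, by 1.20 ± 0.15, and by 0.97 without TMM scaling, which is under the fold.

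The low end of na1 was formed by green leaves and tassel. V2_LF had 3.53, 2.01 and 2.19 CPM, PS_LF 2.84, 2.11 and 2.62 CPM and PS_TAS 2.76, 2.17 and 3.69 CPM, and no neighbours among these 3 tissues differed (adjusted p of 0.613 or more). Immature V2 leaves, at 12.5, 10.3 and 8.12 CPM, were 3.99-fold above the green blades (log2 2.0 ± 0.25, adjusted p = 9.25e-08). Tassels lay below ears by a log2 difference of -1.98 ± 0.24 (adjusted p = 3.90e-08). Internodes had 5.36, 8.02 and 5.13 CPM and exceeded PS_LF by 1.29 ± 0.24 (adjusted p = 3.64e-05). Roots and hypocotyls were intermediate and overlapped, with 4.32, 4.96 and 6.29 CPM in roots and 7.24, 6.05 and 6.82 CPM in hypocotyls (log2 -0.37 ± 0.22, adjusted p = 0.186).

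The last enzyme, brd1, had another order of tissues. Its lowest level was in the internode, where the libraries held 0.696, 1.32 and 0.529 CPM, from 20, 45 and 16 reads. This was -3.85 ± 0.50 on the log2 scale against the other tissues (adjusted p = 2.33e-07), and 0.849 CPM on average against 6.34 CPM in the next tissue up, the 12-day seeds (adjusted p = 4.67e-05). The first 6 tissues in the order, PS_TAS, V2_LF, PS_SILK, V2_LF-I, DAP35_S and DAS4_R, had means between 20.8 and 14.4 CPM, and no neighbours among them differed (adjusted p of 0.686 or more). Tassel libraries were close together, at 21.7, 19.2 and 21.4 CPM, against 8.09, 7.95 and 8.08 CPM in ears. Here brd1 was the only 1 of the 4 genes that was higher in the tassel (log2 1.37 ± 0.47, adjusted p = 0.0110), though without TMM scaling the difference was 0.25 (adjusted p = 0.638).

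In the leaf samples brd1 also went its own way. V2_LF-I had 17.4, 23.1 and 18.0 CPM, against 19.6, 12.9 and 28.9 CPM in V2_LF, and the groups overlapped. The log2 difference was -0.07 ± 0.47 (adjusted p = 0.958), a difference that was not detectable at this spread. PS_LF libraries held 14.2, 3.84 and 1.06 CPM. Libraries of PS_LF thus overlapped with both the internode and V2_LF, although the fit called the internode lower than PS_LF (log2 -2.92 ± 0.55, adjusted p = 4.88e-05) and PS_LF lower than V2_LF (-1.65 ± 0.48, adjusted p = 0.00647). The high PS_LF library, replicate 1, was harvested on 25 November and the other 2 on 28 November. Without replicate 1, the PS_IN1 minus PS_LF difference of brd1 was -1.53 (adjusted p = 0.00481), PS_LF minus V2_LF was -3.04 (adjusted p = 4.23e-06), and PS_LF against the other tissues, which was not called with it (-0.64 ± 0.37), was called lower at -2.03 (adjusted p = 4.55e-05). Without V2_LF replicate 3, PS_LF minus V2_LF was -1.29 and was not called (adjusted p = 0.0502), and fitted on the libraries of these 2 tissues alone it was -1.65 (adjusted p = 0.124).

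Silks and seeds gave brd1 differences that were less firm. Silks had 29.2, 10.2 and 21.2 CPM, all above the ear libraries (log2 1.33 ± 0.47, adjusted p = 0.0192). This call was lost without PS_SILK replicate 1 (0.95, adjusted p = 0.123) or PS_EAR replicate 2 or 3 (adjusted p = 0.0518 and 0.0513). Seeds at 35 days had 20.0, 16.6 and 13.1 CPM, against 7.0, 6.81 and 5.21 CPM at 12 days, without overlap (log2 1.39 ± 0.47, adjusted p = 0.0190). This call of brd1 was lost without DAP35_S replicate 1 (adjusted p = 0.0667) or DAP12_S replicate 3 (adjusted p = 0.0737), and stage and RNA extraction cannot be told apart. Roots, at 14.9, 13.2 and 15 CPM, were above hypocotyls, at 6.05, 6.55 and 7.68 CPM, with no overlap, but the log2 difference of 1.09 ± 0.47 did not pass the test (adjusted p = 0.0612). It passed without PS_LF replicate 1 (adjusted p = 0.0101) or replicate 3 (adjusted p = 0.0151), and in a fit of root and hypocotyl libraries alone (log2 1.04, adjusted p = 0.000452).

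Within tissues the pooled SD of log2 CPM was 0.67 for brd1, against 0.28 for na1, 0.18 for na2 and 0.24 for bri1. The brd1 value was larger than in 95.8% of the 3770 genes whose mean log2 CPM was within 0.5 of its own. PS_LF weighed most in it, with an SD of 1.83. Over all genes, PS_LF replicate 1 also stood apart from its mates. The chi-square of counts per degree of freedom was 130 against replicate 2 and 122 against replicate 3. Between replicates 2 and 3 it was 13.1. The SD in PS_LF was 0.22 for na1, 0.25 for na2 and 0.22 for bri1. In the other tissues the SD of brd1 ran from 0.01 in PS_EAR to 0.77 in PS_SILK. Calls of brd1 against the mean of the other tissues were made in V2_LF-I (log2 1.10), V2_LF (1.17), PS_SILK (1.15) and PS_TAS (1.20). They were lost without V2_LF-I replicate 2 (0.96, under the fold for a call), V2_LF replicate 3 (0.80, adjusted p = 0.0835) and PS_SILK replicate 1 (0.79, adjusted p = 0.0871). The log2 mean of the other tissues in all these calls includes the internode, at 0.849 CPM of brd1. In mean CPM, V2_LF-I had 19.5 against 12.1 in the other 10 tissues and V2_LF 20.5 against 12.0. Silks had 20.2 against 12.0 and tassels 20.8 against 11.9. The tassel call of brd1 was kept in each of the 33 fits that left out 1 library, but without TMM scaling the values were 0.55 in PS_TAS (adjusted p = 0.143) and 0.01 in V2_LF (adjusted p = 1). The brd1 calls of PS_SILK over PS_EAR (0.85), DAP35_S over DAP12_S (0.76) and PS_LF under V2_LF (-0.85) were also lost without this scaling.

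The receptor gene bri1 was highest in ears, with 83.0, 67.4 and 73 CPM. Against the other tissues this was a log2 difference of 2.02 ± 0.11 (adjusted p = 2.82e-14). The internode came next, at 40.4, 47.2 and 49.6 CPM (1.25 ± 0.12 over the other tissues, adjusted p = 1.32e-09), and differed from the ear above it and the silk below it in the order (adjusted p = 0.00159 and 0.0138). Silks had 37.9, 25.6 and 31.0 CPM, below every ear library, with a log2 difference of -1.24 ± 0.18 from ears (adjusted p = 2.90e-06). Tassels had 9.54, 6.21 and 9.76 CPM and were far below ears (-3.13 ± 0.20, adjusted p = 3.06e-13). Silks, 12-day seeds, roots and hypocotyls formed a group of neighbours that did not differ (adjusted p of 0.630 or more), with means between 31.5 and 27.3 CPM. Roots and hypocotyls held 26.7, 31.0 and 31.6 CPM and 30.4, 25.3 and 26.2 CPM, a log2 difference of 0.12 ± 0.18.

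In leaves bri1 was low. V2_LF had the lowest level, with 7.57, 4.39 and 6.16 CPM, against which immature leaves with 21.4, 13.3 and 20.3 CPM were 3.05-fold higher (log2 1.61 ± 0.20, adjusted p = 1.03e-07). PS_LF held 7.93, 10.8 and 9.14 CPM, and its log2 difference of 0.62 ± 0.20 from V2_LF passed the test (adjusted p = 0.0140) but not the fold. Internodes exceeded PS_LF by 2.30 ± 0.19 (adjusted p = 9.72e-11). Seeds at 35 days had 13.6, 13.2 and 13.6 CPM, against 29.3, 29.2 and 33.6 CPM at 12 days, so bri1 was lower in the older seeds (log2 -1.19 ± 0.19, adjusted p = 1.29e-05) where brd1 was higher.

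**Figure D2:**
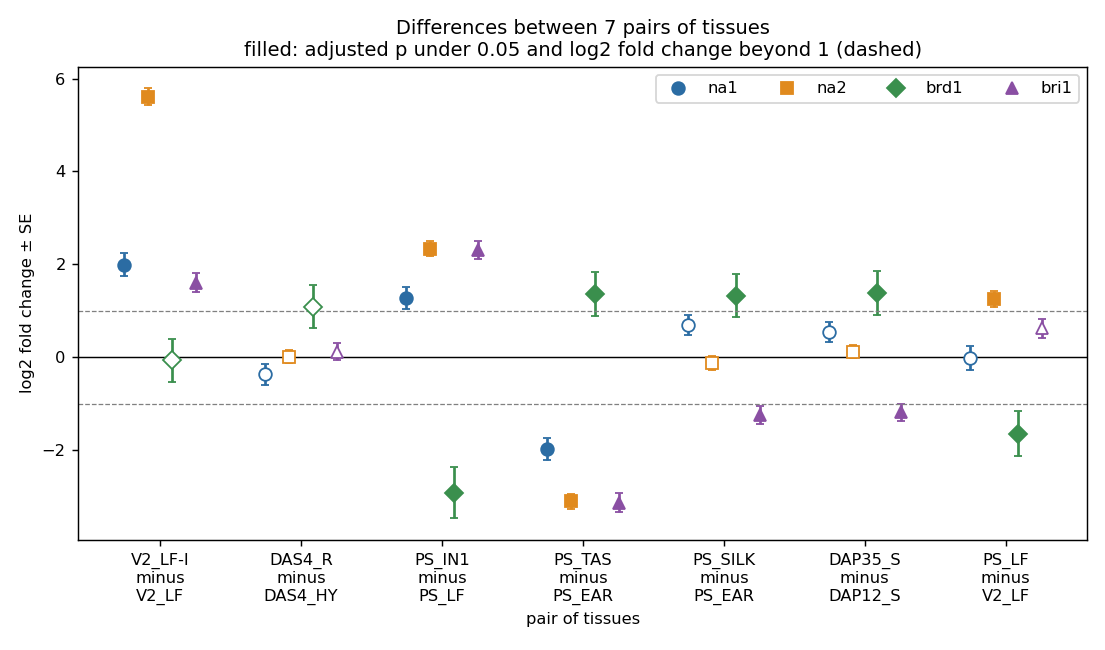
Log2 fold changes (± SE) of the 4 genes in 7 pairs of tissues, first tissue minus second; filled symbols passed both thresholds. In the internode and the tassel brd1 points the other way from na1, na2 and bri1, and its error bars (SE 0.47 to 0.55) are the longest.

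Over the 7 pairs of tissues, 10 of 28 combinations were called higher (19.2% of all over the genes tested) and 7 lower (17.6%). Counted by pair, immature against green V2 leaves had 3 of the 4 genes higher (26.9% of all genes were) and 0 lower (22.5%). The internode had na1, na2 and bri1 higher than PS_LF (21.6% of all genes) and brd1 lower (19.0%). The tassel had the mirror of this against the ear, with brd1 higher (32.1% of all genes) and the other 3 lower (23.5%). In silks brd1 was called higher than in ears (14.8%) and bri1 lower (18.0%), and the same 2 genes moved in the same directions in 35-day against 12-day seeds (13.7% higher and 11.3% lower). PS_LF had na2 higher than V2_LF (12.8%) and brd1 lower (14.9%). Between roots and hypocotyls 0 of 4 genes were called by edgeR or by DESeq2 (12.6% of all genes were called higher and 13.9% lower), and 1 of 4, brd1, had an unadjusted p under 0.05. The pairs that share PS_EAR, PS_LF or V2_LF share those libraries. Over all 55 pairs of tissues, 48 differed for na2, 48 for bri1, 43 for na1 and 31 for brd1 at an adjusted p under 0.05 within the pair, where 63.9% of all such tests passed.

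Across the 11 tissue means of log2 CPM, Pearson's r was 0.80 between na1 and na2, 0.75 between na2 and bri1 and 0.63 between na1 and bri1. With brd1 it was 0.11 for na1, 0.06 for na2 and -0.42 for bri1. These points share libraries and scaling factors and are given as a description. Without the green blades, V2_LF and PS_LF, r over 9 tissues fell to 0.58 for na1 and na2, 0.46 for na2 and bri1 and 0.35 for na1 and bri1. The balance of reads between the early and the late enzyme varied widely. The na2 reads per brd1 read had a median of 102 in internodes, 31.8 in ears and 1.54 in tassels, and of 17.5 in V2_LF-I and 0.258 in V2_LF. Such ratios depend on the lengths of both genes and were compared only between tissues.

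The genes whose tissue pattern was most like each of the 4 were sought among 23885 tested genes with at least 5 CPM in some tissue, by Pearson's r over the 11 tissue means, and are known here by ID only. For na1 they were Zm00001d018447 (r = 0.97) and Zm00001d010202 (r = 0.96), both highest in silks, at 85.7 and 31.6 CPM. For na2 they were Zm00001d033876 and Zm00001d045596 (r = 0.98 each), with 695 genes above 0.9 in all. Those for bri1 were Zm00001d038122 (r = 0.97), highest in ears at 18.6 CPM, and Zm00001d022582 (r = 0.94), highest in silks at 39.3 CPM. For brd1 the closest were Zm00001d019279 (r = 0.89), highest in V2_LF at 73.7 CPM, and Zm00001d044202 (r = 0.85), highest in silks at 25.2 CPM, and 0 genes exceeded 0.9, against 75 for na1 and 41 for bri1. These choices depend on the measure. By Spearman's correlation, which uses ranks, Zm00001d044202 came at place 167 for brd1 (0.66). Zm00001d045596 came at 405.5 for na2 (0.86), and the other genes named at 16 or better.

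The libraries were stranded, and reads on the strand opposite to a gene were counted in another column. For bri1 and na2 they were few, with at most 3 and 42 reads per library, or 0.0618% and 0.116% of the reads on both strands, where the median gene tested had 0.168%. In brd1 they were present in each of the 33 libraries, at 6 to 77 reads, and made up 9.29% of its reads, a share larger than in 95.8% of genes tested. Opposite-strand reads outnumbered those of brd1 itself in the internode, where the libraries held 61, 68 and 39 of them beside 20, 45 and 16 on the gene's strand, or 67.5% in all (exact 95% binomial interval 61.3% to 73.3%, counting error only). PS_LF had 72, 54 and 42 beside 425, 82 and 19, so that the opposite strand exceeded the gene's in replicate 3. In V2_LF-I they were fewest by share, at 10, 6 and 22 beside 338, 404 and 629. Reads on the gene's own strand ranged from 16 to 894 per library for brd1, a wider span than the 6 to 77 on the other strand.

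The opposite strand of na1 had a different distribution. Tassels held 22, 4 and 16 such reads, beside 44, 43 and 64 on the gene's strand, or 21.8% in all (exact 95% interval 16.2% to 28.3%, counting error only). By library the shares were 33.3%, 8.51% and 20%. In the other 30 libraries of na1 there were 0 to 7. Which transcripts these reads came from was not tested, and a gene overlapping on the other strand cannot be told from them here. They do not enter the levels above. With the reads of both strands counted together, the brd1 differences from the other tissues were 0.83 in V2_LF-I, 0.94 in V2_LF, 0.89 in PS_SILK and 0.99 in PS_TAS, all under the fold for a call, and that of na1 in the tassel was -0.99.

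**Figure D3:**
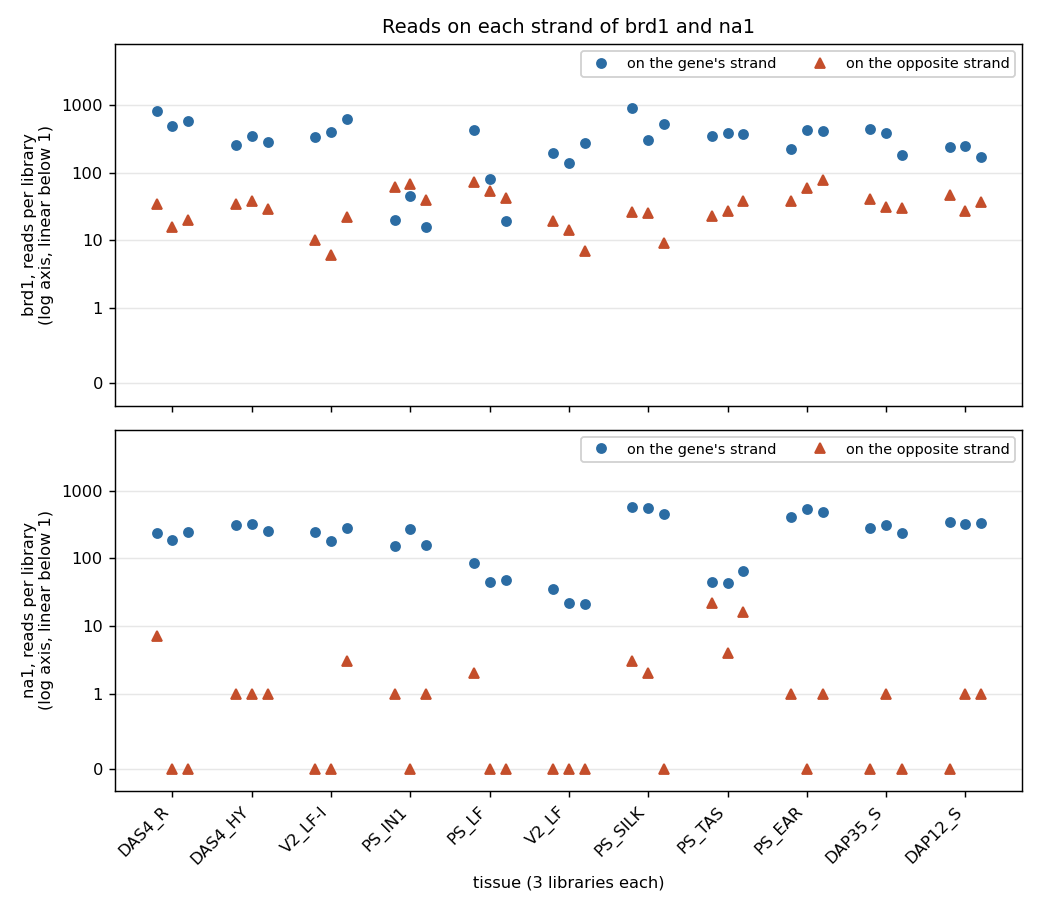
Reads per library on the gene's own strand (circles) and on the opposite strand (triangles) of brd1 and na1, by tissue, on a log axis that is linear below 1. For brd1 the triangles stay between 6 and 77 reads and lie above the circles in the internode, and for na1 they reach 22 reads in the tassel.

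Harvest date was the batch the labels give, for ears, internodes, blades and tassels at pollen shed, with replicate 1 taken on 25 November and the others on 28 November. In a fit over these 12 libraries with tissue as a term, 0 of the 4 genes differed between dates by edgeR or DESeq2, 0 of 4 had an unadjusted p under 0.05, and 0.0940% of 26609 genes did pass. The log2 difference of brd1, 28 minus 25 November, was -0.67 ± 0.47 (adjusted p = 0.600), and 0.04 without PS_LF replicate 1. The date differences of na1, na2 and bri1 were -0.12 ± 0.21, 0.20 ± 0.11 and 0.03 ± 0.15. In edgeR's test of whether the date difference itself differed between the 4 tissues, brd1 had F = 4.15 (unadjusted p = 0.0499, adjusted p = 0.353). The adjusted p of na1, na2 and bri1 in this test was 0.654 or more. The share of all genes that passed it is not given here.

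Other genes of the pathway came from the Gene Ontology terms given in the study's module table, of which only a shortened form was used, so the lists are partial. The study's modules hold only genes near enhancers that were active in husk or in inner leaf tissue of V2 seedlings. The lists are therefore not a sample of all genes of the pathway, and how this choice bears on the counts below was not tested. None of the 4 genes above is on the lists. Of 15 genes under brassinosteroid biosynthetic process 13 were tested, and of 16 under response to brassinosteroid or its signalling 15 were tested. Green V2 blades had 0 of the 13 biosynthetic genes higher (23.4% of all genes) and 5 lower (23.1%), with a median log2 difference from the other tissues of -1.19, beside -0.27 over all genes tested. Immature against green V2 leaves had 5 of the 13 higher (26.9% of all genes) and 0 lower (22.5%), with a median of 0.59 beside 0.00. Tassels had 1 of the 13 higher (32.1% of all genes) and 2 lower (23.5%) than ears.

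Of the biosynthetic genes, Zm00001d018409 and Zm00001d005798 were picked for their CPM, which also depends on gene length and does not rank genes by level. Zm00001d018409 had a narrow range, with tissue means between 78.1 CPM in tassels and 186 CPM in hypocotyls. Zm00001d005798 was highest in internodes, at 203 ± 38.7 CPM (SD, n = 3), and lowest in V2_LF, at 14.8 ± 1.70 CPM. It was called higher in the internode by 2.11 ± 0.10 against the other tissues, in the tissue where brd1 was lowest. The widest ranges were those of Zm00001d026413, with 27.7 CPM in roots and at most 0.257 CPM in any other tissue, and of Zm00001d026655, with 5.23 CPM in hypocotyls and 0.263 CPM in V2_LF.

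In ears 8 of the 15 response genes were called higher than in the other tissues (18.7% of all genes) and 0 lower (13.2%), with a median log2 difference of 1.02, beside -0.02 over all genes tested. Ears were also where bri1 was highest. Some response genes were at low levels even in ears, such as 2.30, 2.37, 3.01 and 3.04 CPM. Roots had 6 of the 15 higher (24.0% of all genes) and 3 lower (12.2%). Hypocotyls had 5 higher (23.9%) and 0 lower (6.99%), and 35-day seeds 5 higher (18.4%) and 4 lower (16.2%). In roots, hypocotyls and 35-day seeds bri1 was not called higher. The internode, where bri1 was called higher, had 2 of the 15 higher (17.6%) and 1 lower (12.3%). Elsewhere at most 4 of the 15 were higher. Silks had 8 of the 15 lower (18.0% of all genes) and 1 higher (14.8%) than ears, with a median of -1.24 beside -0.02. Tassels had 7 of the 15 lower (23.5%) and 4 higher (32.1%) than ears, with a median of -0.84 beside 0.09. Of the 2 response genes picked by CPM in the same way, Zm00001d020804 had 382 CPM in ears, 266 CPM in PS_LF and 36.8 CPM in 35-day seeds. The other, Zm00001d024533, was highest in V2_LF at 91.7 CPM, where bri1 was lowest. Zm00001d007489 had the widest range, with 33.8 CPM in hypocotyls and 0.134 CPM in V2_LF, and the second widest, Zm00001d039039, had 192 ± 117 CPM in tassels (SD, n = 3) and 1.5 CPM in PS_LF.

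**Figure D4:**
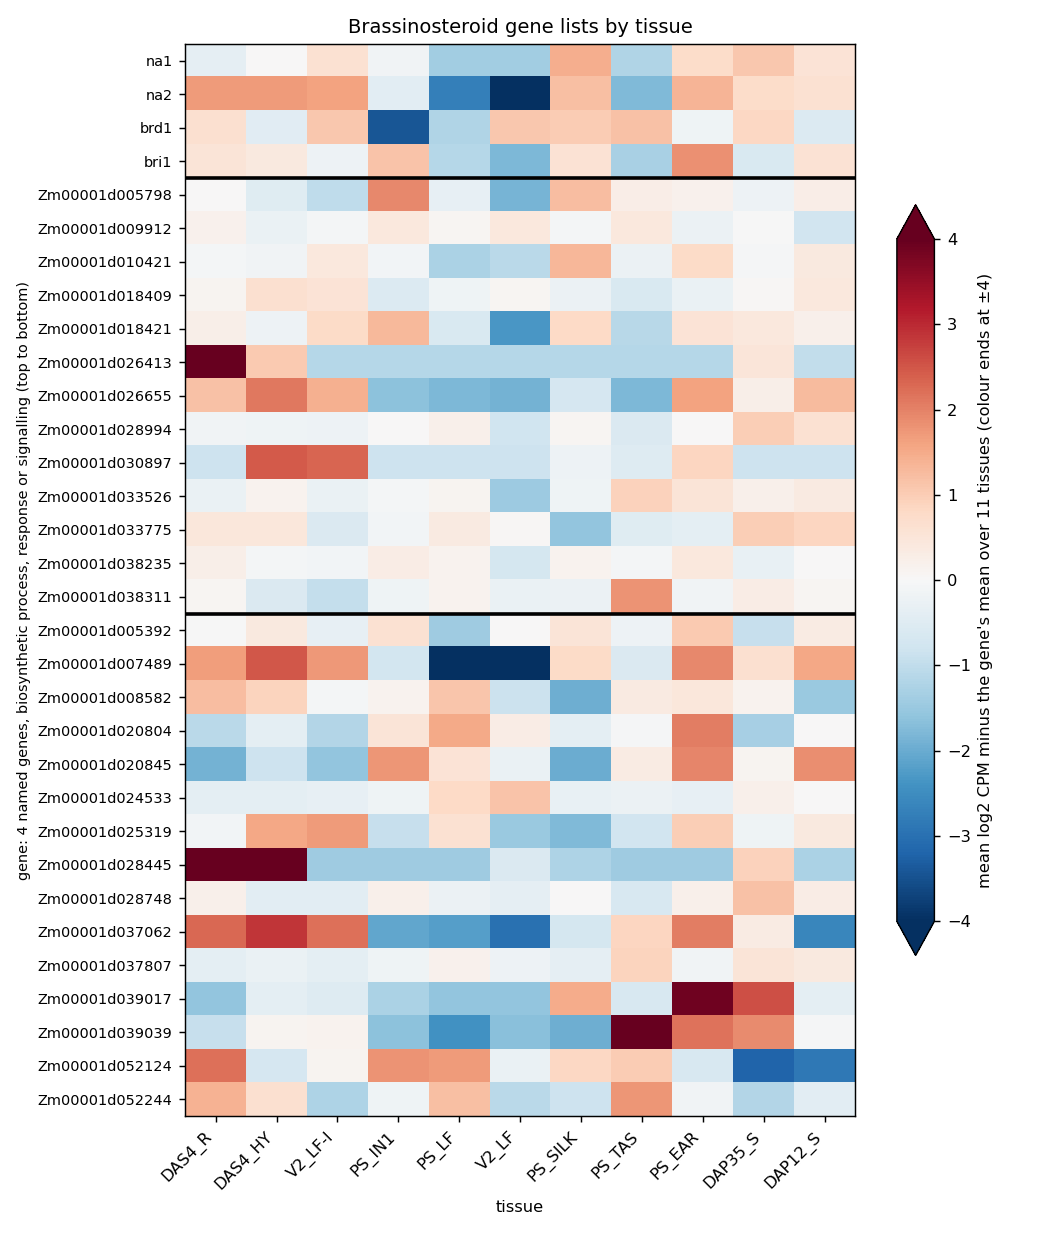
Mean log2 CPM of each gene minus its own mean over the 11 tissues, for the 4 genes (top), 13 biosynthetic genes (middle) and 15 response or signalling genes (bottom); red is above and blue below the gene's mean. The V2_LF column is blue for na1, na2, bri1 and most biosynthetic genes and red for brd1, and the PS_EAR column is red for bri1 and many response genes.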

How the data were processed

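Paired-end, stranded polyA libraries were sequenced by the authors, who trimmed reads with Trimmomatic, removed ribosomal reads with sortMeRNA and deposited raw counts per gene from STAR on B73 RefGen_v4 (tool versions: not given in the sources used here). Of the deposited count columns, the one for the gene's strand was used, and 10.3% to 20.2% of reads fell on no single gene and were left out. Genes were filtered with filterByExpr (minimum count 10, total 15), scaled by TMM and tested with edgeR 4.0.16 in R 4.3.3 (quasi-likelihood F test, 11 groups, 22 residual degrees of freedom, Benjamini-Hochberg adjustment over 28997 genes). log2 CPM used a prior count of 2. No 2 libraries of a tissue were alike within sampling noise (chi-square per degree of freedom of 8.42 to 130). The fit was tested on counts simulated with the same dispersion for all genes, unlike real counts. For V2_LF-I minus V2_LF, 43% of log2 changes of 1 and 100% of those of 2 were recovered at an adjusted p under 0.05. For V2_LF-I against the other tissues it was 84% and 100%. False calls were 7 and 12 among 27671 genes. Differences near a log2 of 1 can thus be missed in a pair. DESeq2 1.42.0, other scalings, filters, columns and leaving out each library were tried; fits without 1 library kept the genes and dispersion trend of the full fit.

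The 4 genes, the lists and the tests were chosen with earlier results of these data known. Named besides the 4 genes are the 2 genes most like each in pattern and, of each list, the 2 with the highest mean CPM and the 2 with the widest range. In the RefSeq table given, 1 of the 4 genes was matched, na1, and no sequence or coordinate is shown.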

Additional observations from a re-analysis of the deposited data

Results flagged for a closer look

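Reads on the strand opposite to the 4 genes lie outside the levels compared above, and their sums over the 33 libraries exceeded the limit of 3 counts that a count of 0 allows. They came to 1121 for brd1, 237 for na2, 69 for na1 and 19 for bri1. As a share of the reads on both strands these sums are 9.29%, 0.116%, 0.846% and 0.0618%, in the same order, beside 0.168% for the median gene tested.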

How the results depend on the processing

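Of the 40 called differences of the 4 genes, 40 kept direction and call with DESeq2, upper quartile scaling, no filter on low counts, and the 28 November libraries alone, and 0 changed direction under any alternative run. Without TMM 7 calls were lost and 7 gained (16 higher against the other tissues in place of 13): brd1 and bri1 in roots (1.06 and 1.02), na1 in ears (1.42), na1, na2 and bri1 in 12-day seeds, and bri1 in PS_LF over V2_LF (1.38, beside 0.62). The median of all genes also moved, by 0.44 in roots and in 12-day seeds, 0.58 in ears and 0.71 in PS_LF over V2_LF. With the unstranded counts 5 calls were lost, and with the libraries of a pair alone 1 of 17; upper quartile scaling added brd1 in 35-day seeds (1.01). Leaving out 1 library in turn gave 12 to 13 calls higher and 10 to 11 lower against the other tissues and 9 to 11 higher and 6 to 7 lower in the pairs; 6 differences, each of brd1, lost a call in at least 1 such fit. With no minimum fold, 23 combinations in place of 13 were called higher against the other tissues (34.9% of all), and with a log2 fold change beyond 2 there were 1 higher (11.8%) and 3 lower (7.01%), and in the pairs 3 higher (11.8%) and 3 lower (9.94%). The level of brd1 in PS_IN1 was 2.66 CPM from unstranded counts, beside 0.849 CPM, and its difference from the other tissues -2.38. The causes of these changes were not tested. Replicate numbers were not treated as pairing the samples. The rule was that each same-numbered pair of libraries correlate above 0.1, which none of the 7 pairs of tissues met. Silks and ears came closest, at 0.0993 to 0.278. In 2 of the 7 pairs each of the 3 libraries correlated best with its own number, so this rule does not exclude a pairing. With the replicate number as a block, 13 calls were higher and 10 lower against the other tissues, 10 higher and 7 lower in the pairs, and 4 of 4 genes differed over the tissues. Reads of na1 and of brd1 in the internode were few, which limits their precision, and 3 libraries per tissue limit all values.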
